A study of Homo sapiens with 12 samples.

Results

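The genes described here are 10 members of the xenobiotic-handling machinery of Caco-2 cells, which come from a human colon adenocarcinoma and differentiate into an enterocyte-like monolayer. They were taken by gene symbol from the 26125 rows of the deposited expression table, and they are the sensor AHR, the ADP-ribosyltransferase TIPARP, the cytochromes P450 CYP1A1, CYP1B1 and CYP3A5, the glucuronosyltransferases UGT1A6 and UGT2A3, the sulfotransferase SULT2A1 and the glutathione transferases GSTA1 and GSTP1. RNA was sequenced in 12 libraries, 3 in each of 4 groups. The groups were cells given ochratoxin A (OTA) and Bacillus subtilis CW14 together (the combined group), OTA alone, CW14 alone, or neither (control). OTA is a mould toxin of stored food, added at 15 µmol/L to the apical chamber, and CW14 is a bacterial strain that the series title calls probiotic. All groups shared the cell line, 21 days of culture on transwell inserts and a HEPES-buffered salt solution as transport buffer. The line is tumour-derived and grown in culture without the other cells of a gut wall, and the labels give neither the time of exposure nor the origin of the replicates. The p-values therefore reflect only how far these samples spread, possibly for technical reasons.

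Cells dispose of foreign compounds in steps. Phase I enzymes such as the cytochromes P450 oxidise a compound, and phase II enzymes then attach glucuronic acid, sulfate or glutathione, which makes it soluble enough to be exported. AHR is a ligand-activated transcription factor that enters the nucleus, pairs with ARNT and binds the xenobiotic response element, and CYP1A1, CYP1B1, TIPARP and UGT1A6 are textbook targets of it. In the intestine these enzymes form part of the first-pass barrier to toxins taken in with food.

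Values are FPKM, fragments scaled by transcript length and by the mapped fragments of the library, so levels can be compared between genes per length. The ± is the SD of 3 libraries throughout (n = 3 per group). Differences are log2 differences of FPKM + 1, which understate the change of low genes, and the word called marks a limma adjusted p under 0.05 (Benjamini-Hochberg over the 12928 genes that averaged 1 FPKM or more). All 10 members passed that level filter, CYP1B1 only through its CW14 libraries: its mean was 1.33 FPKM over the 12 libraries and 0.657 FPKM over the 9 without CW14 alone.

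Combined replicate 3 stood apart from the other libraries. Its depth relative to control replicate 1 was 0.470, against 0.642 to 1.60 in the others, and its residual SD was 0.588 on the log2 scale, against 0.305 to 0.424. The members called in a comparison with the combined group are therefore also given without it. Of 10 epithelial markers, 9 had a mean of at least 1 FPKM (SI, sucrase-isomaltase, did not), and their summed level was 4171 to 6398 FPKM in combined, 4053 to 4486 in OTA, 4069 to 4217 in CW14 and 4622 to 5375 in control libraries. The defining leukocyte marker PTPRC, the fibroblast markers COL1A2 and DCN and the endothelial marker KDR were listed at 0 in all 12 libraries. Other markers were present and differed. In combined against OTA, CD14 (log2 difference 0.93, limma adjusted p = 0.0077), PDGFRA (1.40, limma adjusted p = 0.00854) and CDX2 (0.72, limma adjusted p = 0.0111) were called higher. CD68 (-0.91, limma adjusted p = 0.0072), EPCAM (-0.64, limma adjusted p = 0.00891) and CDH1 were called lower. In OTA against control, VIL1 (0.68) was called higher and KRT18 (-0.53) and KRT20 (-0.81) lower. The part of these marker differences in the results below was not tested. In the same order of groups, the summed level of the 5 leukocyte markers was 62.9 to 90.8, 109 to 136, 72.3 to 90.4 and 81.5 to 99.7 FPKM. That of the 6 fibroblast markers was 7.73 to 9.07, 4.79 to 6.28, 5.12 to 8.07 and 6.48 to 9.60 FPKM, and that of the 4 endothelial markers was 1.55 to 1.77, 1.29 to 1.97, 0.674 to 1.62 and 0.991 to 1.74 FPKM.

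The untreated monolayer set the order of the members. GSTP1, the pi-class glutathione transferase, was highest at 395 ± 24.9 FPKM in control libraries, and AHR was next at 34.6 ± 4.74 FPKM. TIPARP (24.9 ± 0.837), UGT2A3 (23.6 ± 9.73), UGT1A6 (18.1 ± 3.11) and CYP1A1 (15.6 ± 3.30) followed, and each overlapped its neighbour in that order. CYP3A5 (4.92 ± 0.917), GSTA1 (3.34 ± 1.41) and SULT2A1 (3.24 ± 0.561) overlapped in the same way, and CYP1B1 was lowest at 0.668 ± 0.422 FPKM. GSTP1 and AHR did not overlap the member next below them, although AHR (29.6 to 39.0 FPKM) overlapped UGT2A3 (15.7 to 34.5 FPKM). CYP1A1 did not overlap CYP3A5, nor SULT2A1 CYP1B1.

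**Figure D1:**
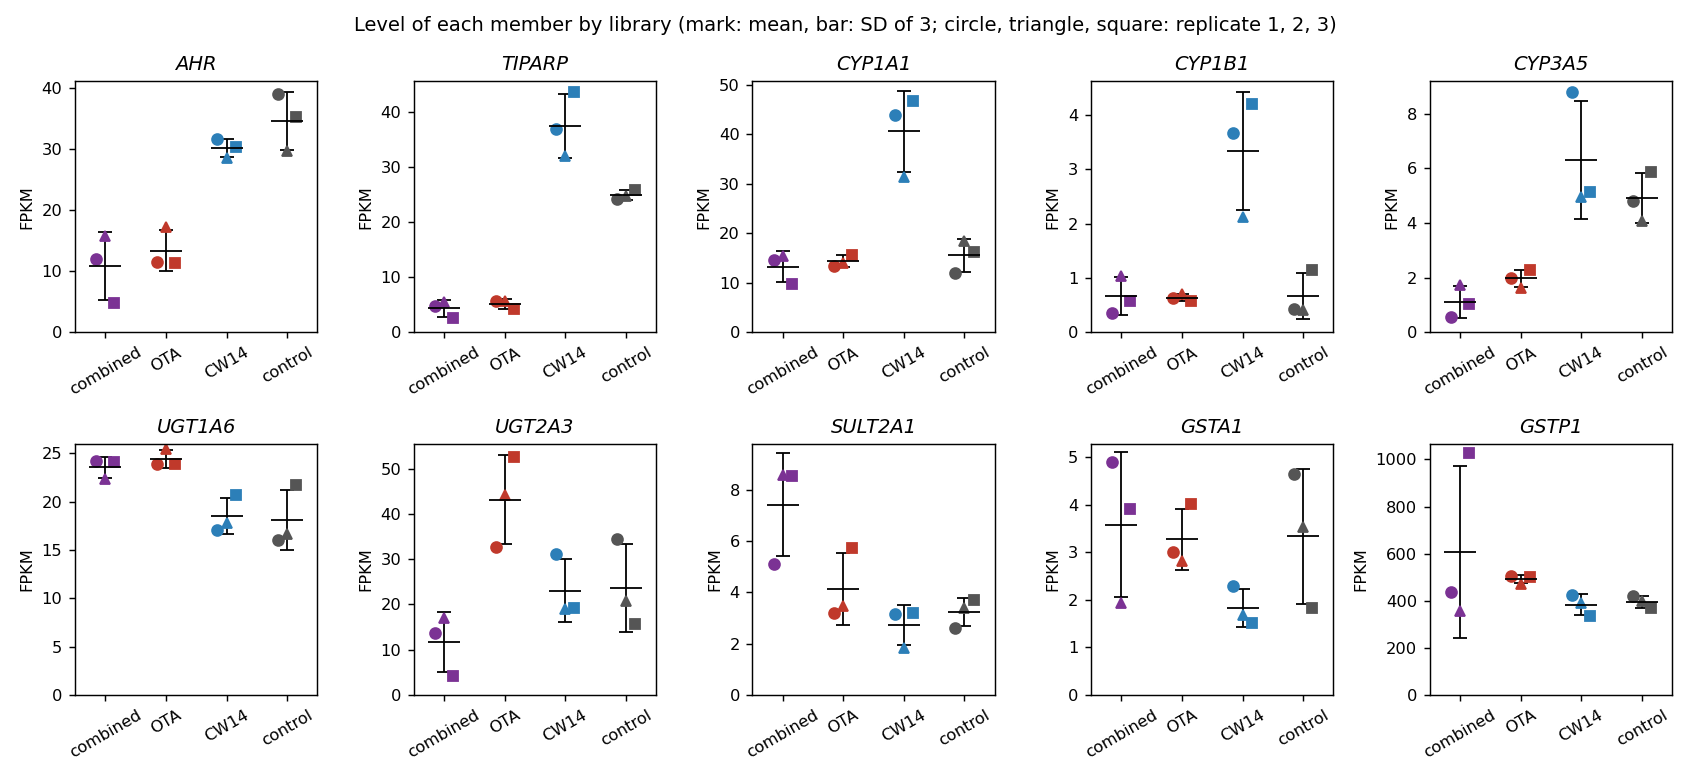
FPKM (y axis, linear, from 0) of the 10 members in the 12 libraries, by group (x axis). Points are libraries, horizontal marks are group means and bars are the SD of 3 libraries; CYP1A1 and CYP1B1 are highest in the 3 CW14 libraries, and AHR, TIPARP and CYP3A5 are low in both groups given OTA.

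The promoters of AHR and of 3 genes it is known to act on are shown to set their letters beside the values of these AHR-linked genes; UGT1A6 is included as a known target, although it was called in none of the pairwise comparisons. Each is the 300 bases from 250 before to 50 after the most upstream start that RefSeq lists for the gene (build GRCh38.p14), written 5′ to 3′ along the gene's strand. Capitals mark GCGTG, the core of the xenobiotic response element, or CACGC, the same letters on the opposite strand.
AHR, chr7:17298402-17298701, plus strand: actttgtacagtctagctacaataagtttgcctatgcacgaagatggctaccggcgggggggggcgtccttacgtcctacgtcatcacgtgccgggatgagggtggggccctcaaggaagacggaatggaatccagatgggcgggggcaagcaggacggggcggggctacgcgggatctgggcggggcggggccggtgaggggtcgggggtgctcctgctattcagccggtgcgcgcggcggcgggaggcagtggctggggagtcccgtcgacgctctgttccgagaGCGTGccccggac
TIPARP, chr3:156674340-156674639, plus strand: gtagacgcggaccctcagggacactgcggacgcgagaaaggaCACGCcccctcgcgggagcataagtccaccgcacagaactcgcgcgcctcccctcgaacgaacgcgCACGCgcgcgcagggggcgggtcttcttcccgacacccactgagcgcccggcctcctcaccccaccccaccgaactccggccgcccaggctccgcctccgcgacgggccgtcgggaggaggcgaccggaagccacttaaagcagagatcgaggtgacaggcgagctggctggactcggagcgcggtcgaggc
CYP1A1, chr15:74725479-74725778, minus strand: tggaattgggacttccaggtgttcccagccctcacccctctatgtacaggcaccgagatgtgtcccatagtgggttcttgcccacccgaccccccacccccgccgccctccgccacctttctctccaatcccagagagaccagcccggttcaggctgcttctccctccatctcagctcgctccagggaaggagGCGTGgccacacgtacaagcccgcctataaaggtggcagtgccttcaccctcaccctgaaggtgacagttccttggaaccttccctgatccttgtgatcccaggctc
UGT1A6, chr2:233691452-233691751, plus strand: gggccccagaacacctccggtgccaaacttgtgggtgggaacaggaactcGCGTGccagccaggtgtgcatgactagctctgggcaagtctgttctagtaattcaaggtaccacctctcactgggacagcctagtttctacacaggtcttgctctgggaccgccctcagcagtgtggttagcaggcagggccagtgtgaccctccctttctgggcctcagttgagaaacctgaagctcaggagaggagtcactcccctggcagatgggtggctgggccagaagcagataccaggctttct

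In CYP1A1 the core began 57 bases before the start and a TATAAA began 32 bases before it. TIPARP held the core 208 and 142 bases before its start, both on the opposite strand. UGT1A6 held it 200 bases before its start, and AHR itself held it 38 bases into the transcript. GCGTG on either strand occurred in 36.5% of the 35116 windows of this length in the table, and in the most upstream window of 5 of the 9 members that have an entry (the fifth is SULT2A1). TATAAA occurred in 11.5% of the windows and in those of CYP1A1 and GSTA1. TGACNNNGC, the core of the antioxidant response element, occurred in 13.3% of the windows and in that of GSTP1, 66 bases before its start. UGT1A6 also held TGACNNNGC in the window of its other listed start. GC content ranged widely, at 74.0% in GSTP1, 71.0% in TIPARP and 67.3% in AHR, against 31.0% in UGT2A3. These matches describe the letters alone.

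The bacteria alone were compared with no addition (CW14 against control). CYP1A1 rose, CYP1B1 was higher in every CW14 library, and the other 8 members were not called. CYP1A1, which oxidises polycyclic aromatic hydrocarbons (hg19 chromosome 15, 75011881 to 75017877), was at 43.8, 31.3 and 46.7 FPKM in CW14 libraries, against 12.0, 18.5 and 16.2 FPKM in control libraries. All 3 CW14 libraries lay above all 3 controls, and the ratio of the group means was 2.61. The log2 difference was 1.33 (SE 0.21, limma adjusted p = 0.0196). CYP1B1, a related P450 that also oxidises oestradiol (chromosome 2, 38294744 to 38303323), was at 3.67, 2.12 and 4.21 FPKM with CW14, against 0.429, 0.419 and 1.16 FPKM in controls. Its groups did not overlap either (log2 difference 1.37, SE 0.26, limma adjusted p = 0.0486). Since its CW14 libraries alone carried it past the level filter, its values with CW14 are a description, and with no filter on low values it was not called (limma adjusted p = 0.0596). CW14 replicate 2 was the lowest CW14 library for both genes.

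TIPARP, which ADP-ribosylates AHR and so damps its signal (chromosome 3, 156390958 to 156424557), was at 37.0, 31.9 and 43.6 FPKM with CW14, against 24.1, 24.8 and 25.8 FPKM in controls, without overlap. The difference was not called (log2 difference 0.56, SE 0.21, limma adjusted p = 0.656, unadjusted p = 0.0223). AHR itself (chromosome 7, 17338274 to 17385775) was at 31.6, 28.5 and 30.4 FPKM with CW14, against 39.0, 29.6 and 35.3 FPKM in controls. These values overlap, and the 95% interval of the log2 difference ran from -0.87 to 0.49. UGT1A6, the fourth AHR target among the members, was at 18.5 ± 1.89 FPKM with CW14, against 18.1 ± 3.11 FPKM in controls, with an interval of -0.26 to 0.34.

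Of the 9 members other than CYP1B1, 1 was called higher with CW14, where 0.217% of all genes tested were, and 0 were called lower, where 0.147% were. In 2 of these 9 the CW14 libraries lay wholly above the controls, as they did in 9.66% of genes tested, and in 0 wholly below, as in 10.9% (20.5% in either direction). Since the members were chosen with earlier results of these data known, these shares are a description. The CYP1A1 call was lost without control replicate 1 or 3 or CW14 replicate 1 or 3 (limma adjusted p = 0.105, 0.085, 0.11 and 0.14). It was also lost with no filter on low values (0.0563), with a replicate block (0.0528) and with the compared groups alone (0.0625), and over the alternatives its log2 difference was 1.16 to 1.50 with adjusted p of 0.000572 to 0.14. The CYP1B1 call was lost in 16 of 22 alternatives, among them the removal of control replicate 1, 2 or 3, of CW14 replicate 1 or 3, of any OTA replicate or of combined replicate 1. Its log2 difference stayed between 1.22 and 2.41 and its adjusted p ran from 0.00275 to 0.268.

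With OTA present, CW14 was not accompanied by high CYP1A1. CYP1A1 was at 14.7, 15.3 and 9.74 FPKM in combined libraries, against 13.4, 14.1 and 15.7 FPKM with OTA alone. The log2 difference was -0.13 (SE 0.21, 95% interval -0.59 to 0.33). The interaction, the effect of CW14 with OTA minus its effect without, was -1.46 (SE 0.30, limma adjusted p = 0.0284), and all 3 combined libraries lay below all 3 CW14 libraries. CYP1B1 was at 0.365, 1.05 and 0.581 FPKM in combined libraries, against 0.633, 0.711 and 0.573 FPKM with OTA. Its interaction was -1.37 (SE 0.36) and was not called (limma adjusted p = 0.056). TIPARP had an interaction of -0.81 (SE 0.30, limma adjusted p = 0.131).

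Of the 9 members other than CYP1B1, only CYP1A1 was called for the interaction, where 3.33% of all genes tested were (1.85% higher and 1.49% lower). In the F test for any difference among the 4 groups 7 of the 9 members other than CYP1B1 were called, where 37.5% of all genes tested were; GSTA1 and GSTP1 were not. Without combined replicate 3 the CYP1A1 interaction was -1.27 (limma adjusted p = 0.0121). The CYP1B1 interaction was then -1.34, which is a description because its CW14 libraries carried it past the level filter. The CYP1A1 interaction kept its sign in all 22 alternatives (-1.63 to -1.23, adjusted p 0.000382 to 0.078). Its adjusted p passed 0.05 in 9 of them: the fit with a replicate block, and the removal of any single control or OTA library or of CW14 replicate 1 or 3.

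**Figure D2:**
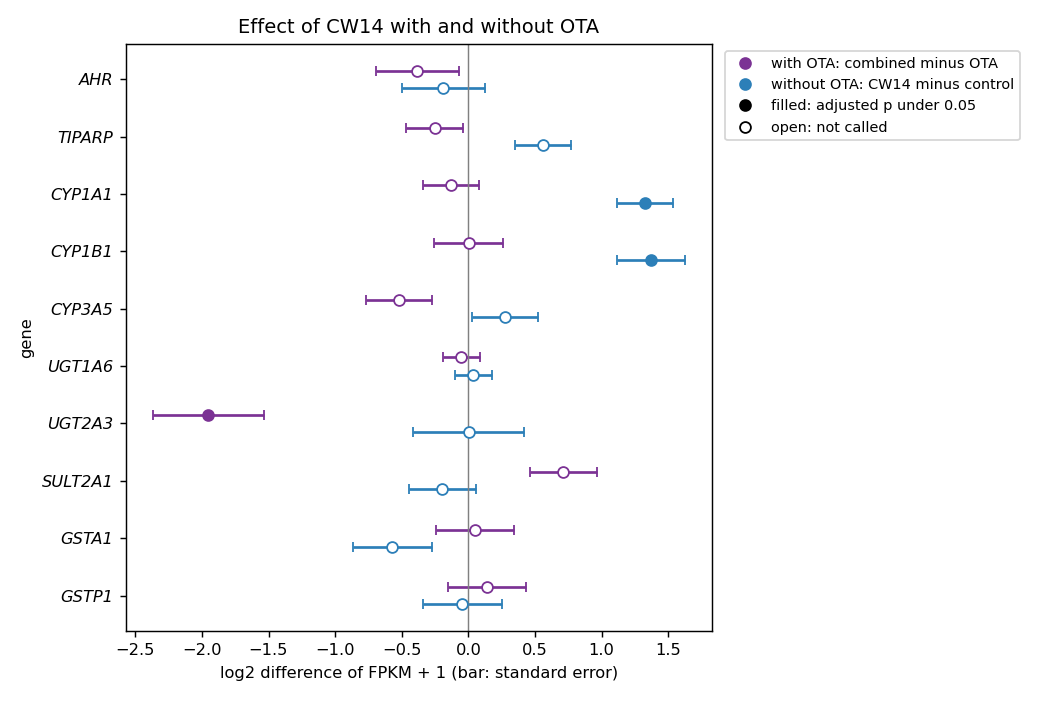
Log2 difference of FPKM + 1 (x axis) for each member (y axis), for combined minus OTA and for CW14 minus control. Points are limma estimates, bars are standard errors and filled points were called; CYP1A1 and CYP1B1 lie at 1.33 and 1.37 for CW14 minus control and at -0.13 and 0.00 for combined minus OTA.

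The toxin alone was compared with no addition (OTA against control). AHR, TIPARP and CYP3A5 fell, and none of the 10 members was called higher. TIPARP had the largest fall: it was at 5.65, 5.74 and 4.18 FPKM with OTA, against 24.1, 24.8 and 25.8 FPKM in controls. The OTA mean was 20.8% of the control mean (log2 difference -2.08, SE 0.21, limma adjusted p = 4.1e-05). AHR was at 11.5, 17.3 and 11.3 FPKM with OTA, against 39.0, 29.6 and 35.3 FPKM in controls. The OTA mean was 38.6% of the control mean (log2 difference -1.33, SE 0.31, limma adjusted p = 0.0123). For neither gene did the groups overlap, and OTA replicate 2 was the highest of its group for both. In bulk RNA, fewer cells of a type and less RNA per cell cannot be told apart.

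CYP3A5, an intestinal and hepatic P450 that oxidises many drugs (chromosome 7, 99245810 to 99277649), was at 2.00, 1.63 and 2.28 FPKM with OTA, against 4.80, 4.06 and 5.89 FPKM in controls (log2 difference -0.99, SE 0.25, limma adjusted p = 0.0173). The highest OTA library was below the lowest control. CYP1A1 was at 14.4 ± 1.15 FPKM with OTA, against 15.6 ± 3.30 FPKM in controls, and the 95% interval of its log2 difference was -0.55 to 0.37. For CYP1B1 the interval was -0.56 to 0.56, at 0.639 ± 0.0693 FPKM with OTA, against 0.668 ± 0.422 FPKM in controls.

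Among conjugating enzymes no difference with OTA was called. UGT1A6, which glucuronidates small phenols (deposited locus chromosome 2, 234526289 to 234681951), was at 24.0, 25.5 and 23.9 FPKM with OTA, against 16.0, 16.6 and 21.7 FPKM in controls. All OTA libraries were above all controls, and the difference missed the threshold (log2 difference 0.42, SE 0.14, limma adjusted p = 0.0529). Median-centring moved the median of all genes by 0.105 in this comparison and gave UGT1A6 an adjusted p of 0.0191, within a range of 0.00308 to 0.176 over the alternatives. UGT1A6 shares its locus with 8 other UGT1A genes, and 57.3% of the read-length stretches of its longest transcript occur in another UGT1A gene, so fragments can be split among them. Of those, only UGT1A1 passed the level filter, at 1.09 ± 0.287 FPKM with OTA, against 1.35 ± 0.542 FPKM in controls.

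UGT2A3, a glucuronosyltransferase known to act on bile acids (chromosome 4, 69794175 to 69817509), was at 32.8, 44.2 and 52.4 FPKM with OTA, against 34.5, 20.7 and 15.7 FPKM in controls. The groups overlapped through control replicate 1, and the difference was not called (log2 difference 0.89, SE 0.42, limma adjusted p = 0.17). GSTP1 (chromosome 11, 67351064 to 67354124) was at 504, 471 and 501 FPKM with OTA, against 419, 397 and 369 FPKM in controls, without overlap and without a call (log2 difference 0.32, SE 0.29, limma adjusted p = 0.504). SULT2A1, which sulfates steroids and bile acids (chromosome 19, 48373721 to 48389654), was at 4.14 ± 1.40 FPKM with OTA, against 3.24 ± 0.561 FPKM in controls. GSTA1, an alpha-class glutathione transferase (chromosome 6, 52656176 to 52668664), was at 3.28 ± 0.642 FPKM with OTA, against 3.34 ± 1.41 FPKM in controls. AHR shares 32.1% of its read-length stretches with the annotated transcript AC019117.2, whose level is not analysed here. GSTA1 shares 6.90% of its read-length stretches with GSTA2, which was at 27.4 ± 8.92 FPKM with OTA, against 20.8 ± 4.97 FPKM in controls.

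Of the 10 members, 3 were called lower with OTA, where 12.9% of all genes tested were, and 0 higher, where 4.82% were. The groups did not overlap in 5 members, 2 higher and 3 lower, as in 50.0% of genes tested (24.4% higher and 25.7% lower). The calls of the whole table were 27.2% higher as deposited, 46.2% after median-centring, 40.2% after quantile normalization and 42.1% after upper-quartile scaling. The median log2 difference was 0.02 over the members and 0.03 over all genes tested. AHR, TIPARP and CYP3A5 were called lower under each of these scalings. Without combined replicate 3, which adds to the shared estimate of spread, UGT1A6, UGT2A3 and GSTP1 were called higher too (limma adjusted p = 0.0193, 0.026 and 0.0392). The AHR call was lost without OTA replicate 3 (adjusted p = 0.0556, range 1.83e-05 to 0.0556). The CYP3A5 call was lost without control replicate 3 or OTA replicate 1 or 2 (0.0786, 0.0502 and 0.0667, range 0.00197 to 0.0786), and the TIPARP call was kept in all 23 alternatives.

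**Figure D3:**
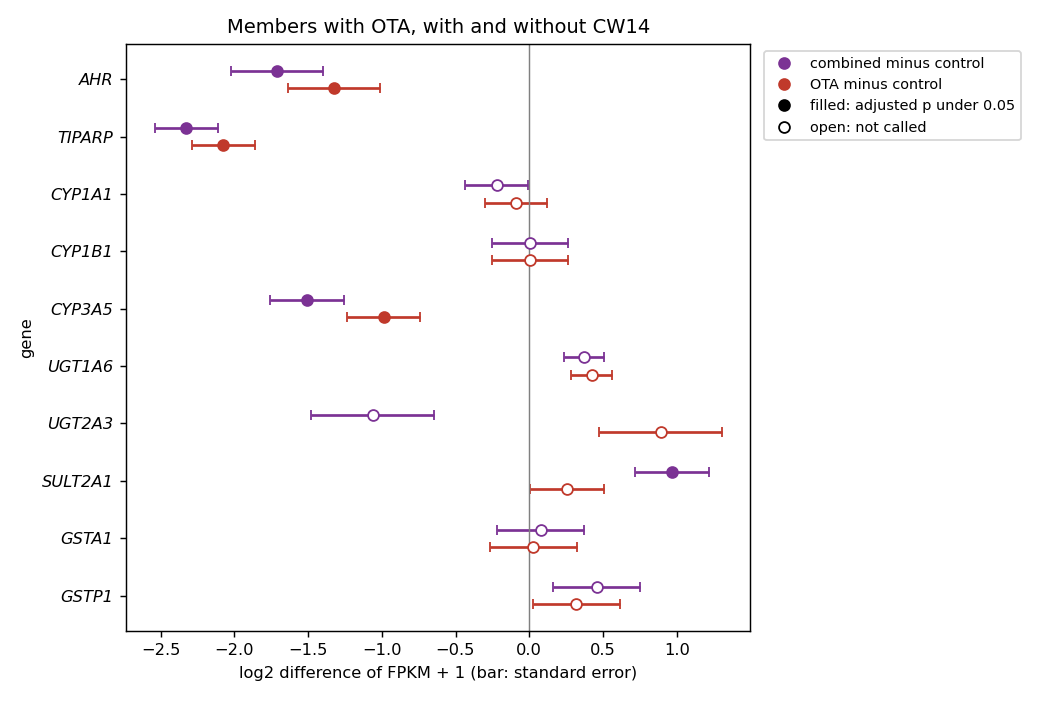
Log2 difference of FPKM + 1 (x axis) for each member (y axis), for combined minus control and for OTA minus control. Points are limma estimates, bars are standard errors and filled points were called; AHR, TIPARP and CYP3A5 lie below 0 and were called in both, and SULT2A1 was called higher for combined minus control.

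Combined against OTA asks whether the bacteria changed what was seen with the toxin. UGT2A3 fell, and the other 9 members were not called. UGT2A3 was at 13.7, 17.0 and 4.31 FPKM in combined libraries, against 32.8, 44.2 and 52.4 FPKM with OTA, without overlap. The combined mean was 27.1% of the OTA mean (log2 difference -1.95, SE 0.42, limma adjusted p = 0.0122). Combined replicate 3 was the lowest library, and without it the log2 difference was -1.41 (SE 0.31, limma adjusted p = 0.00899). The call was lost without OTA replicate 3 (adjusted p = 0.051) and with the compared groups fitted alone (adjusted p = 0.0825, range 1.97e-05 to 0.0825). The interaction for UGT2A3 was -1.95 (SE 0.59, limma adjusted p = 0.0776), and without combined replicate 3 it was -1.42 and called (limma adjusted p = 0.0447).

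AHR, TIPARP and CYP3A5, the members lower with OTA than in controls, were not called between combined and OTA. AHR was at 12.1, 15.8 and 4.82 FPKM in combined libraries, against 11.5, 17.3 and 11.3 FPKM with OTA. TIPARP was at 4.85, 5.54 and 2.60 FPKM in combined libraries, against 5.65, 5.74 and 4.18 FPKM with OTA. For both genes combined replicate 3 was the lowest library, and without it the log2 differences were 0.07 for AHR and 0.01 for TIPARP. CYP3A5 was at 0.572, 1.74 and 1.04 FPKM in combined libraries, against 2.00, 1.63 and 2.28 FPKM with OTA, and was not called (log2 difference -0.52, SE 0.25, limma adjusted p = 0.167).

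SULT2A1 was at 5.09, 8.60 and 8.54 FPKM in combined libraries, against 3.20, 3.48 and 5.75 FPKM with OTA. The groups overlapped through combined replicate 1, and the difference was not called (log2 difference 0.71, SE 0.25, limma adjusted p = 0.073). GSTP1 was at 438, 355 and 1027 FPKM in combined libraries, against 504, 471 and 501 FPKM with OTA. Combined replicate 3 alone held the high value: without it the log2 difference was -0.32 (limma adjusted p = 0.0797), against 0.14 with it. UGT1A6 was at 23.6 ± 1.06 FPKM in combined libraries, against 24.4 ± 0.899 FPKM with OTA, with a 95% interval of -0.35 to 0.25. GSTA1 was at 4.91, 1.93 and 3.91 FPKM in combined libraries, against 3.01, 2.82 and 4.01 FPKM with OTA, and the groups overlapped. Of the 10 members, 1 was called lower, where 8.22% of all genes tested were, and 0 higher, where 7.79% were. The groups did not overlap in 1 member, lower in combined, as in 34.4% of genes tested (17.8% higher and 16.6% lower). Of all calls, 48.6% were higher as deposited and 36.7% after median-centring.

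Set against untreated cells, the combined group had AHR, TIPARP and CYP3A5 lower and SULT2A1 higher. These comparisons share their control or combined libraries with those above, so they are not separate evidence. The combined mean was 31.4% of the control mean for AHR (log2 difference -1.71, SE 0.31, limma adjusted p = 0.00214) and 17.4% for TIPARP (log2 difference -2.33, SE 0.21, limma adjusted p = 1.45e-05). For CYP3A5 it was 22.7% (log2 difference -1.51, SE 0.25, limma adjusted p = 0.00111). Without combined replicate 3 the log2 differences were -1.26 for AHR, -2.07 for TIPARP and -1.50 for CYP3A5 (limma adjusted p = 0.00041, 3.01e-06 and 0.00192). SULT2A1 was at 5.09, 8.60 and 8.54 FPKM in combined libraries, against 2.62, 3.38 and 3.71 FPKM in controls, without overlap (log2 difference 0.97, SE 0.25, limma adjusted p = 0.0144). That call was lost without control replicate 1 (adjusted p = 0.0605, range 0.00483 to 0.0605) and was present without combined replicate 3 (log2 difference 0.86, adjusted p = 0.0309). Of the 10 members, 3 were called lower and 1 higher, where 16.8% and 12.0% of all genes tested were (28.8% in either direction). The groups did not overlap in 5 members, 2 higher and 3 lower, as in 41.9% of genes tested (19.1% higher and 22.8% lower). Of all calls, 41.8% were higher as deposited and 54.1% after upper-quartile scaling.

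Against CW14 alone, the combined group was lower in TIPARP, CYP1A1 and CYP1B1. These 3 are named together because CW14 libraries held them highest, so their shared direction follows from that choice. UGT1A6, the other AHR target among the members, was higher by 0.33 and not called (limma adjusted p = 0.0811). The log2 differences were -2.89 for TIPARP (SE 0.21, limma adjusted p = 2.89e-06), -1.55 for CYP1A1 (SE 0.21, limma adjusted p = 0.000298) and -1.37 for CYP1B1 (SE 0.26), which is a description because the CW14 libraries carried it past the level filter. AHR was lower by -1.52 and CYP3A5 by -1.78 (limma adjusted p = 0.00385 and 0.000359). SULT2A1 was higher by 1.16 (SE 0.25, limma adjusted p = 0.00509). Without combined replicate 3 these differences were -2.63 for TIPARP, -1.36 for CYP1A1, -1.07 for AHR, -1.77 for CYP3A5 and 1.06 for SULT2A1, all still called in limma. Of the 9 members other than CYP1B1, 4 were called lower and 1 higher, where 17.5% and 14.8% of all genes tested were (32.3% in either direction). The groups did not overlap in 7 of these 9, 2 higher and 5 lower, as in 41.8% of genes tested (19.9% higher and 21.9% lower). These 5 calls were kept in every alternative that tested the gene.

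Some tested genes, other members included, had library profiles close to those of AHR, CYP1A1, CYP1B1 and TIPARP. Closeness was the root mean square distance between log2 profiles over the 12 libraries, after each gene was centred on its own mean. Nearest to CYP1A1 were LOC100130476 (distance 0.25), CYP1B1 (0.26) and the chemokine receptor gene ACKR3 (0.27), where the median distance over all genes was 0.75. ACKR3 averaged 5.70 FPKM in combined, 6.58 in OTA, 17.2 in CW14 and 9.55 in control libraries. Nearest to CYP1B1 were CYP1A1, STAT5A (0.27) and HNRNPU-AS1 (0.29). LOC100130476, STAT5A and CYP1B1 averaged under 1 FPKM in every group except CW14, where they averaged 2.48, 2.05 and 3.33 FPKM. Only their CW14 libraries carried these genes past the level filter, which favours a profile high in CW14. Their closeness to CYP1A1 or CYP1B1 is therefore a description. Nearest to AHR were KIAA1551 (0.12), FNIP1 (0.15) and SPRED2 (0.15), an inhibitor of MAP kinase signalling that averaged 15.1 FPKM in combined, 17.6 in OTA, 43.8 in CW14 and 41.0 in control libraries. Nearest to TIPARP were WEE1, a kinase that holds cells before mitosis, and BHLHE40, a transcriptional repressor (0.21 each), and the tight junction gene CLDN4 (0.24), where the median over all genes was 1.34. BHLHE40 averaged 33.7 FPKM in combined, 45.6 in OTA, 269 in CW14 and 216 in control libraries.

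Of 10 listed partners and further responsive genes, 7 were tested. With OTA against control 0 of the 7 rose and 0 fell, where 4.82% and 12.9% of all genes tested did. The median log2 difference was 0.09, against 0.03 over all genes. ARNT, the dimer partner of AHR, was at 8.30 ± 1.19 FPKM with OTA, against 7.06 ± 0.735 FPKM in controls. NQO1, a quinone reductase that AHR and NRF2 both act on, was at 94.7 ± 10.2 FPKM with OTA, against 89.9 ± 7.99 FPKM in controls. With CW14 against control 0 of the 7 were called as well, where 0.364% of all genes tested were, and NQO1 was at 70.2 ± 6.90 FPKM with CW14. CYP1A2 and the repressor AHRR were below the level filter. PTGES3, the p23 chaperone of the AHR complex, fell to 311 ± 40.2 FPKM in combined libraries, against 423 ± 16.6 FPKM with OTA (log2 difference -0.45, limma adjusted p = 0.0353). Without combined replicate 3, PTGES3 was called higher (0.27) and HSP90AA1 lower (-0.47) with OTA against control (limma adjusted p = 0.032 and 0.00962). In that fit HSP90AA1 (-0.66) and HSP90AB1 (-0.35) were called lower with CW14 against control (limma adjusted p = 0.0225 and 0.041).

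Of 10 listed regulators of enzyme genes (nuclear factors, and KEAP1, which is no transcription factor), 9 were tested. With OTA against control 0 rose and 4 fell, KEAP1 included, where 4.82% and 12.9% of all genes tested did (median log2 difference -0.41). NFE2L2, which encodes NRF2, the activator of antioxidant genes, fell to 52.6 ± 5.23 FPKM with OTA, against 206 ± 31.8 FPKM in controls (log2 difference -1.94, limma adjusted p = 1.71e-05). HNF4A, a nuclear receptor that acts on many P450 genes, fell to 110.2 ± 6.04 FPKM with OTA, against 149 ± 10.3 FPKM in controls. NR0B2, the corepressor SHP, fell to 0.315 ± 0.0325 FPKM with OTA, against 2.96 ± 0.781 FPKM in controls. KEAP1, the inhibitor of NRF2, fell to 20.0 ± 1.67 FPKM, against 27.1 ± 1.88 FPKM in controls.

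In combined against OTA, 3 of these 9 regulators rose and 1 fell, where 7.79% and 8.22% of all genes tested did. HNF4A was at 154 ± 8.93 FPKM, KEAP1 at 27.9 ± 3.70 FPKM and NR0B2 at 1.41 ± 0.44 FPKM in combined libraries, each above its OTA level (limma adjusted p = 0.0156, 0.0409 and 0.0316). Both comparisons use the same OTA libraries. NR1I2, the pregnane X receptor, a drug sensor that switches on CYP3A genes, fell to 1.26 ± 0.54 FPKM in combined libraries, against 4.03 ± 1.39 FPKM with OTA (log2 difference -1.15, limma adjusted p = 0.0123). With CW14 against control 0 of the 9 were called, where 0.364% of all genes tested were. KEAP1 was nonetheless as low with CW14 as with OTA: its log2 difference from control was -0.44 with CW14 (limma adjusted p = 0.442) and -0.42 with OTA (limma adjusted p = 0.049).

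Of the 28 other P450 genes and electron donors, 12 were tested, and 2 rose and 0 fell with OTA against control, where 4.82% and 12.9% of all genes tested did (17.7% in all). They were CYB5A, cytochrome b5, at 38.7 ± 4.77 FPKM with OTA, against 24.6 ± 1.82 FPKM in controls, and its reductase CYB5R3, at 100.1 ± 6.33 FPKM with OTA, against 68.7 ± 4.42 FPKM in controls. CYP3A4, the main P450 of adult intestine, was listed at 0 in all combined, OTA and CW14 libraries and in control replicates 1 and 2, and at 0.246 FPKM in control replicate 3. Of 27 other phase I enzymes, 21 were tested and 2 rose, where 4.82% of all genes did: ALDH1A1, a retinal dehydrogenase, was at 133 ± 21.2 FPKM with OTA, against 94.6 ± 5.84 FPKM in controls, and CBR1, a carbonyl reductase, at 65.9 ± 6.72 FPKM with OTA, against 41.3 ± 3.99 FPKM in controls. In combined against OTA, CYP51A1 of sterol synthesis fell (log2 difference -0.43, limma adjusted p = 0.0347). The oxygenase FMO5 fell as well (-0.97, limma adjusted p = 0.0403), and the epoxide hydrolase EPHX1 rose to 10.5 ± 3.77 FPKM in combined libraries, against 4.92 ± 1.54 FPKM with OTA.

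Of 22 other glucuronosyltransferases and donor genes, 8 were tested and 1 fell with OTA against control, where 12.9% of all genes did: UGDH, which makes UDP-glucuronic acid, was at 26.9 ± 0.151 FPKM with OTA, against 39.9 ± 3.74 FPKM in controls. UGP2, which makes its precursor UDP-glucose, fell to 64.3 ± 3.85 FPKM in combined libraries, against 115 ± 8.28 FPKM with OTA (log2 difference -0.83, limma adjusted p = 0.0056). Of 16 sulfation genes, 9 were tested and 2 rose with OTA against control, where 4.82% of all genes did. They were SLC26A2, a sulfate transporter, at 197 ± 38.1 FPKM with OTA, against 109.7 ± 23.4 FPKM in controls, and SLC35B2, which carries the sulfate donor into the Golgi, at 106 ± 10.2 FPKM with OTA, against 78.5 ± 3.27 FPKM in controls. PAPSS2, which makes that donor, fell to 7.64 ± 1.64 FPKM in combined libraries, against 16.0 ± 1.1 FPKM with OTA (log2 difference -0.99, limma adjusted p = 0.0118). The oestrogen sulfotransferase SULT1E1 fell to 1.42 ± 0.37 FPKM in combined libraries, against 3.41 ± 0.216 FPKM with OTA. In CW14 against control the log2 difference was -0.50 for UGDH and 0.69 for SLC26A2, neither called (limma adjusted p = 0.355 and 0.663). With OTA the log2 differences of these genes were -0.55 and 0.84.

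Of 22 other glutathione genes, 14 were tested, and 2 rose and 1 fell with OTA against control, where 4.82% and 12.9% of all genes did (17.7% in all). GSTA4, which detoxifies lipid aldehydes, was at 48.9 ± 8.25 FPKM with OTA, against 31.9 ± 4.22 FPKM in controls. The microsomal transferase MGST1 was at 226 ± 23.3 FPKM with OTA, against 157 ± 18.8 FPKM in controls. GCLC, the catalytic subunit of the first step of glutathione synthesis, fell to 13.6 ± 1.82 FPKM with OTA, against 20.2 ± 2.62 FPKM in controls. In combined against OTA 0 of the 14 were called, where 16.0% of all genes tested were. Of 10 methyl and acyl conjugation genes, 6 were tested; ACSM3 was called higher with OTA against control and lower in combined against OTA, at 1.23 ± 0.245 FPKM in combined, 3.28 ± 0.541 FPKM in OTA and 1.83 ± 0.363 FPKM in control libraries. TPMT, which methylates thiopurines, fell to 11.7 ± 2.91 FPKM in combined libraries, against 19.4 ± 0.611 FPKM with OTA.

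Over these 8 lists together, 86 of 144 genes in the table were tested. With OTA against control 9 rose and 6 fell, 17.4% of those tested, where 17.7% of all genes were called. In combined against OTA 4 rose and 9 fell, 15.1%, where 16.0% of all genes were called. Without combined replicate 3, 11 of these 13 were called with the same sign, and EPHX1 and FMO5 were not (limma adjusted p = 0.0946 and 0.0814). In that fit 19 genes of the lists were called in all, and the share of all genes called in it is not given here. With CW14 against control limma called 0 of the 86, where 0.364% of all genes were called. Without combined replicate 3, 30 genes of the lists were called with OTA against control. With CW14 against control 3 were then called, all lower: HSP90AA1, HSP90AB1 and UGDH. Genes called in the whole table rose as well in that fit, from 2288 to 4376 with OTA and from 47 to 130 with CW14.

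**Figure D4:**
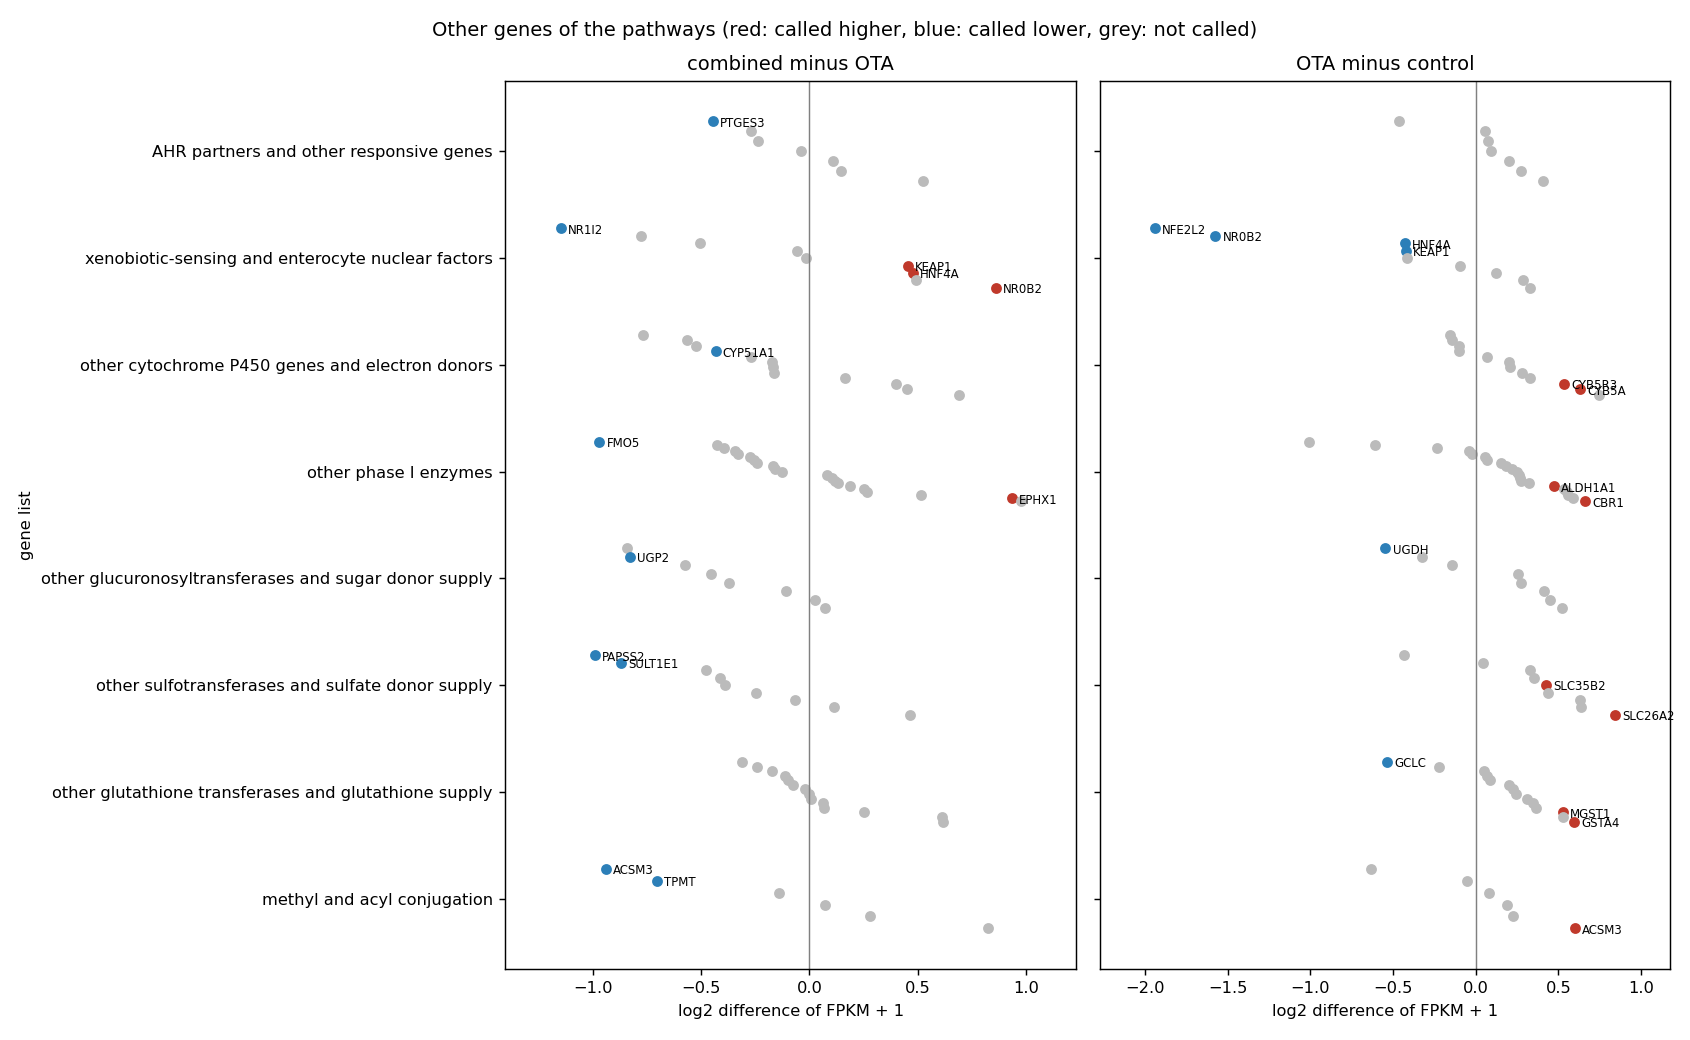
Log2 difference of FPKM + 1 (x axis) of each tested gene in the 8 further lists (y axis), for combined minus OTA (left) and OTA minus control (right). Red points were called higher, blue lower and grey not called; NFE2L2 at -1.94 lies farthest from 0 on the right and NR1I2 at -1.15 on the left.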

How the data were processed

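The authors deposited FPKM per gene and library as 1 table of 26125 rows. Per the submitters' processing notes the build was hg19, and Cufflinks 2.2.1 with Cuffnorm and Cuffdiff, TopHat2 2.0.13 and cutadapt 1.10 are named without role or order; for the annotation and any scaling across samples: not given in the sources used here. Loci are as deposited, and whether starts count from 0 or 1 is not stated. Per the labels' protocols the 150-base paired reads came from a kit not stated to mark strand, so TIPARP and its antisense partner TIPARP-AS1, below 1 FPKM on average, cannot be told apart.

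FPKM are not counts, and absolute depth is unknown. Relative depth was read off low values, under 0.3 FPKM, as their commonest ratio to control replicate 1 (tolerance 0.01 on the log2 scale).

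Groups and replicate numbers came from the sample titles. log2(FPKM + 1) was fitted in R 4.3.3 by limma 3.58.1, using all 12 libraries and a mean per group (8 residual degrees of freedom, variance trend on intensity), with two-sided tests and Benjamini-Hochberg adjustment over the 12928 genes tested. The fit was tested on simulated data. Comparisons were the 5 pairs of groups given, the interaction and the F test. The alternatives were pseudocounts of 0.1 and 0.01, no filter, a mean of at least 5 FPKM, 3 scalings, array weights, no trend, the compared groups alone, a replicate block and each library left out.

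Promoters came from RefSeq (GRCh38.p14) and shared stretches of 150 bases from GENCODE transcripts. The members and lists were chosen with earlier results of these data known, and a few listed genes are not reported here. All members were named with their values; of the other lists, the genes called with OTA, with CW14 or in combined against OTA, at most 6 a list; and the 3 nearest profiles of AHR, CYP1A1, CYP1B1 and TIPARP.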

Additional observations from a re-analysis of the deposited data

Results flagged for a closer look

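The effect of CW14 on CYP1A1 differed between cells with and without OTA. The log2 difference for CW14 was -0.13 with OTA (combined against OTA) and 1.33 without it (CW14 against control), and the interaction term was -1.46 (SE 0.30, limma adjusted p = 0.0284, lower in 3 of 3 combined than in all CW14 libraries). Relative depth was 0.470 to 0.674 in combined, 0.660 to 1.60 in OTA, 0.774 to 0.895 in CW14 and 0.914 to 1.58 in control libraries, and its part in the result was not tested. Without combined replicate 3 the interaction was -1.27 (adjusted p = 0.0121). The call was lost in 9 of 22 alternatives, among them the removal of any single control or OTA library (adjusted p up to 0.078).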

How the results depend on the processing

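Of the 60 member differences, 17 were called, 10 of these kept their call in every alternative that tested the gene, and 0 changed sign. The member counts in this section include CYP1B1, called in CW14 against control and in combined against CW14. Its calls are a description, because its CW14 libraries alone carried it past the level filter. The replicate numbers did not pair the libraries: deviations correlated over 0.1 in 1 of 18 same-numbered pairs, and 1 of 12 libraries correlated best with its own number. With a replicate block, members called became 0 for CW14 against control and 0 for the interaction, whose genes called became 286. The cause of the changes below was not tested, except where fewer genes or libraries entered by construction.

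Members called in CW14 against control (2, CYP1B1 included) became 1 with either smaller pseudocount, with the filter at 5 FPKM, with quantile normalization and with upper-quartile scaling, and 0 with no filter and with the compared groups alone. Genes called there (47) became 28 with a pseudocount of 0.01 and 25 with no filter. With no filter, genes called for the interaction (431) became 235. The filter at 5 FPKM left 3 members called in combined against CW14 and 5 in the F test (8). With array weights, genes called became 5864 (OTA against control), 333 (CW14 against control), 7703 (combined against OTA), 8686 (combined against control), 7991 (combined against CW14), 5124 (interaction) and 10773 (F test, 4845), and members called became 6 (OTA against control), 3 (combined against OTA), 7 (combined against control) and 6 (interaction). With the compared groups alone, genes called became 4621 (OTA against control), 70 (combined against OTA), 1596 (combined against control) and 1521 (combined against CW14), and members called 6 (OTA against control) and 0 (combined against OTA).

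Leaving out 1 library moved the genes called to 1299 to 4376 for OTA against control (2288), 4 to 130 for CW14 against control, 661 to 3377 for combined against OTA (2070), 2260 to 4773 for combined against control (3729), 2775 to 5291 for combined against CW14 (4179) and 17 to 1582 for the interaction. Members called ranged over 2 to 6, 0 to 2, 0 to 2, 3 to 6, 6 to 9 and 0 to 4 in the same order. The highest counts of genes came without combined replicate 3 or 2.

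Sign changes occurred only among member differences that were not called, and none was called with the opposite sign. In OTA against control, CYP1A1 was 0.0158 after median-centring and 0.0027 after quantile normalization. In CW14 against control, GSTP1 was 0.0535 after quantile normalization and 0.0018 after upper-quartile scaling. In combined against OTA, CYP1B1 was -0.0479 and -0.0703 with pseudocounts of 0.1 and 0.01, -0.0588 after median-centring, -0.00031 after upper-quartile scaling and -0.26 with array weights. There GSTA1 was -0.0109 after median-centring and -0.0306 after quantile normalization, and with array weights CYP1A1 was 0.0425 and GSTP1 -0.17. Array weights also gave -0.20 for CYP1B1 in combined against control and -0.16 for the GSTP1 interaction. With 1 library left out the ranges were, in OTA against control, -0.25 to 0.0388 (CYP1A1), -0.10 to 0.20 (CYP1B1) and -0.25 to 0.25 (GSTA1); in CW14 against control, -0.0404 to 0.17 (UGT1A6), -0.24 to 0.30 (UGT2A3) and -0.12 to 0.0509 (GSTP1); in combined against OTA, -0.70 to 0.0661 (AHR), -0.42 to 0.0093 (TIPARP), -0.24 to 0.0599 (CYP1A1), -0.16 to 0.13 (CYP1B1), -0.16 to 0.34 (GSTA1) and -0.32 to 0.45 (GSTP1). In combined against control they were -0.15 to 0.20 (CYP1B1), -0.20 to 0.37 (GSTA1) and -0.00064 to 0.76 (GSTP1), and for the interaction -0.51 to 0.25 (AHR) and -0.27 to 0.49 (GSTP1).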
